A study of Mus musculus with 8 samples.

Results

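Cytochrome P450 genes encode haem enzymes that insert an oxygen atom into sterols, steroid hormones, vitamins, fatty acids and foreign chemicals. They were taken from the table of limbus and cornea as every gene whose symbol is Cyp followed by a number, a letter and a number, together with Cyp51, which gave 93 of the 23420 named genes. Of these 93 genes, 46 had at least 1 read in the limbus or the cornea and 47 were undetected, that is listed with a mean of 0. A total of 29 genes had a mean of at least 10 reads after normalisation, and differences between the tissues are described for these.

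The tissues came from wild type mice, which the study's methods give as C57BL/6J animals at 8 weeks of age. The limbal rim, the ring between cornea and sclera that holds the epithelial stem cells of the cornea, was cut away from the corneal button, the central tissue inside that ring. Rims and buttons were each pooled over eyes before RNA was extracted, and stranded total RNA libraries were sequenced. The labels list 8 samples, 4 per tissue, numbered L001 to L004 in the way sequencing lanes are numbered, but the table is built from 1 library of each tissue, with 26104317 reads on named genes in the cornea and 21182025 in the limbus. With 1 library per tissue there is no replicate check and no test, and each ratio carries an exact 95% interval that covers counting error only. The sources used here mention no molecular identifiers, so reads may not be independent molecules. Read numbers are given for the cornea first and the limbus second, and all ratios are limbus over cornea on the log2 scale after division by size factors (cornea 1.03, limbus 0.967), and a positive value is higher in the limbus.

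The table does not say which tissue is which, and Krt12, Kera, Krt15 and Krt19, whose sides the study gives, set the direction, so they check nothing. Among other markers, Aldh3a1 and Tkt, abundant in corneal epithelium, had 634936 and 180082 cornea reads against 255152 and 54694 limbus reads. Of the 6 listed markers of corneal epithelium, Krt12 included, 5 were higher in the cornea beyond counting error, against 40.5% of all genes. Clu went the other way, with 6544 cornea reads and 11359 limbus reads. Gpha2 and Krt4, of limbal and conjunctival epithelium, had 431 and 2138 cornea reads against 6912 and 71498 limbus reads. At 2-fold or more, keratocyte markers had 1 of 6 towards the limbus and 2 of 6 towards the cornea. Corneal endothelium had 2 of 5 towards the limbus and none towards the cornea. Of the 2 sebocyte markers with a mean of at least 10 reads, 1 was corneal by this rule and none limbal. Of all genes, 17.7% met the rule for the limbus and 8.75% for the cornea. The limbal library also held more of other tissues. All 6 listed markers of skeletal muscle, all 5 of melanocytes and all 4 of retina were at least 2-fold higher in it. So were 5 of 6 of blood endothelium and 5 of 7 of leukocytes. The normalised reads summed over each list went from 34.8 in the cornea to 10099.7 in the limbus for skeletal muscle, from 194 to 3095 for blood endothelium, from 306 to 1644 for melanocytes, from 245 to 2286 for retina and from 6950.5 to 15466 for leukocytes. The part of these tissues in the P450 differences was not tested, and in pooled tissue fewer cells of a type and less RNA per cell cannot be told apart.

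P450 enzymes fall into those with a fixed place in metabolism and those that clear or activate chemicals from outside. The first kind make cholesterol, bile acids and steroid hormones and make or destroy vitamin D and retinoic acid. The second kind, chiefly of families 1, 2 and 3, are best known from liver, but several are found in the airways, the skin and the eye surface. Family 4 and the Cyp2j enzymes act on fatty acids such as arachidonate. Most sit in the endoplasmic reticulum and take electrons from the reductase Por, and a few sit in mitochondria and take them from Fdxr and Fdx1.

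Stretches upstream of 3 genes are shown because Cyp51 is known to answer to the sterol supply and the Cyp26 genes to retinoic acid, their substrate, and the values of these genes follow. They are the bases before the start of transcription in RefSeq (GRCm38.p6) that also lie before the gene start in GENCODE, written in the direction of the gene. Capitals mark TCACNNCA in Cyp51, AGNTCANNNNNAGNTCA on the reverse strand in Cyp26a1 and TATAAA in Cyp26b1.
Cyp51, chr5:4104747-4104947, minus strand, 201 bases: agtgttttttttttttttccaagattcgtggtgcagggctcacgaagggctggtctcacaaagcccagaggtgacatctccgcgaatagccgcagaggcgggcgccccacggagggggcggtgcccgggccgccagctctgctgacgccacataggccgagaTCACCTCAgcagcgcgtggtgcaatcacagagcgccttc
Cyp26a1, chr19:37697558-37697797, plus strand, 240 bases: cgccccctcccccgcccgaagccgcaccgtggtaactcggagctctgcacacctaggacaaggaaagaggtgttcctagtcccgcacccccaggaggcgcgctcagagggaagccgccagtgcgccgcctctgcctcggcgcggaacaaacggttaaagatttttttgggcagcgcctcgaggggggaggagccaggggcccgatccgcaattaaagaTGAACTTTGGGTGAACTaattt
Cyp26b1, chr6:84593909-84594060, minus strand, 152 bases: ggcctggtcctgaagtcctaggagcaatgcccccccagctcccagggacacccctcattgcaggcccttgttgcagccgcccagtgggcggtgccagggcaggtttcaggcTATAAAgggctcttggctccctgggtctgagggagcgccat
RefSeq windows of 250 upstream bases were found for 22 of the 29 genes, and each motif was searched on both strands in 32851 such windows. AGNTCANNNNNAGNTCA, a pair of retinoid receptor motifs 5 bases apart, was in 65 of the 32851 windows (0.198%) and, of the 22 P450 genes, in Cyp26a1. It lay 32 to 16 bases before the start. TCACNNCA, letters within the sterol response elements that were chosen after the Cyp51 sequence had been read, was in 11.4% of all windows. It was in those of Cyp51, where it lay 88 to 81 bases before the start, and of Cyp2j9, Cyp2s1, Cyp4f15 and Cyp4v3. The cholesterol synthesis genes described below had TCACNNCA for 6 of the 11 genes with a window, Cyp51 among them. TATAAA was in 12.4% of all windows, and AGNTCANNNAGNTCA, the same motif pair 3 bases apart as the vitamin D receptor binds it, was in 0.0517% of all windows and in none of the 22. A match of letters is no measure of binding.

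Of the 29 P450 genes, 10 (34.5%) were at least 2-fold higher in the limbus with an interval on 1 side of 0, and 7 (24.1%) were at least 2-fold higher in the cornea. Among all 13932 genes with a mean of at least 10 reads, 17.7% met the same rule for the limbus and 8.75% for the cornea. A further 7 P450 genes were higher in the cornea beyond counting error but by less than 2-fold, and 5 were within counting error. At any size, 10 were thus past counting error towards the limbus and 14 towards the cornea, where the shares of all genes were 36.0% and 40.5%. The genes higher in the limbus were Cyp2f2, Cyp2a5, Cyp27a1, Cyp2d22, Cyp7b1, Cyp4b1, Cyp2w1, Cyp1b1, Cyp26a1 and Cyp4f18, and those higher in the cornea were Cyp24a1, Cyp3a13, Cyp2b19, Cyp17a1, Cyp2r1, Cyp2s1 and Cyp4f39. The median log2 ratio of the 29 was -0.52, against -0.04 for all genes, with a range from -4.35 to 4.50. When the libraries were scaled to their total reads, every log2 ratio shifted by 0.21 towards the limbus and the counts became 10 and 4, against 20.1% and 5.48% of all genes, since Cyp17a1, Cyp2s1 and Cyp4f39 were no longer counted.

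**Figure D1:**
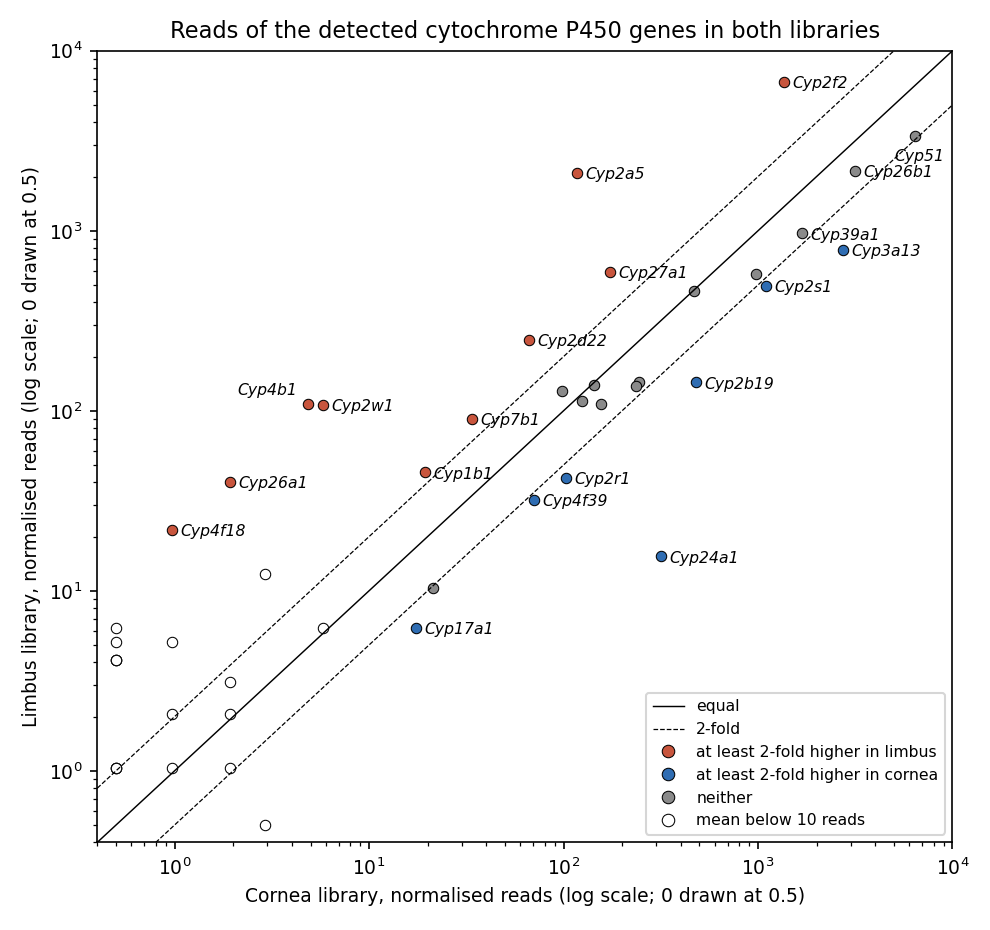
Normalised reads of the 46 detected P450 genes, cornea library on the x axis and limbus library on the y axis, both on log scales. Each point is a gene, the solid line is equality and the dashed lines are 2-fold, and the 10 limbal genes include 4 with 6 cornea reads or fewer (Cyp2w1, Cyp4b1, Cyp26a1 and Cyp4f18) while the 7 corneal genes reach 2839 reads (Cyp3a13).

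**Figure D2:**
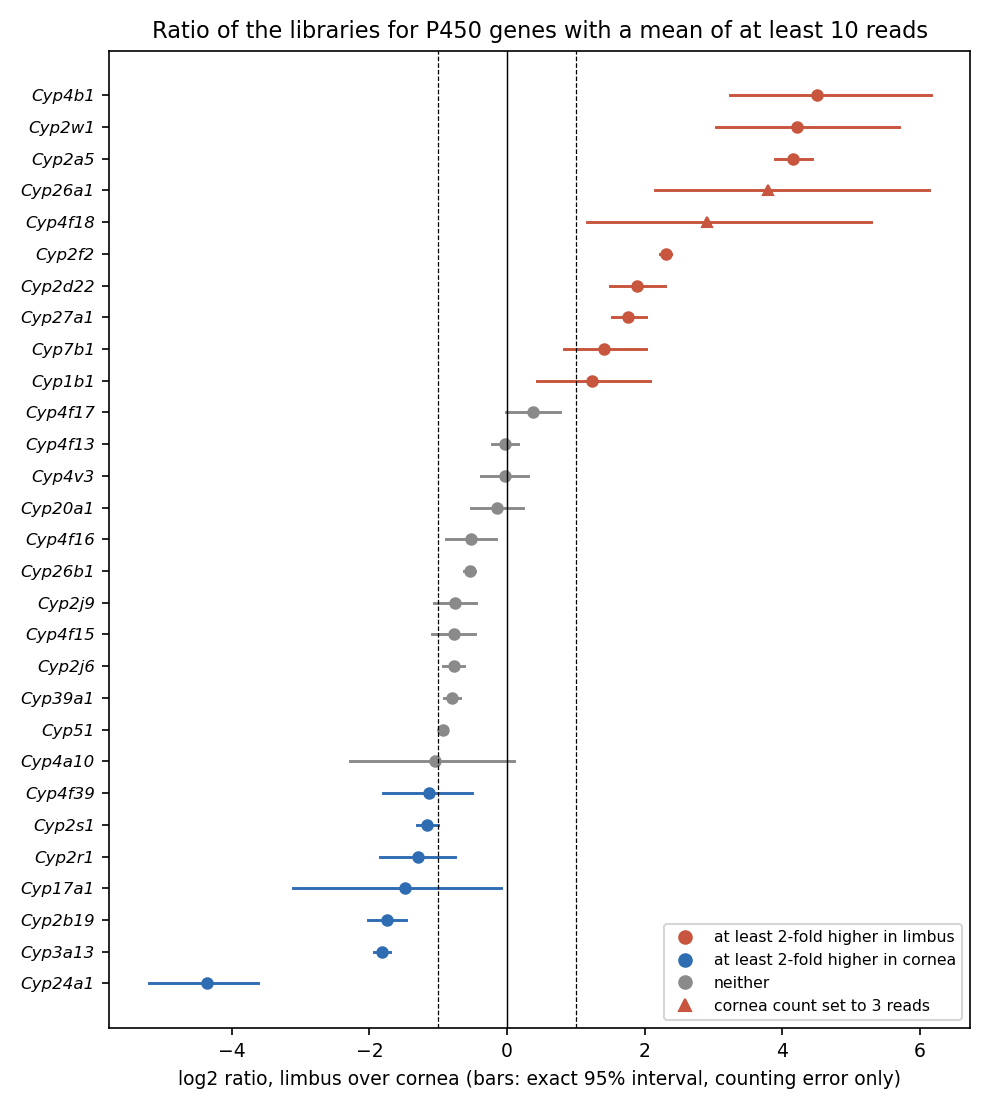
Log2 ratios of limbus over cornea for the 29 P450 genes with a mean of at least 10 reads, with exact 95% intervals for counting error. The solid line is 0 and the dashed lines are 2-fold, triangles had their cornea count set to 3 reads, and the ratios run from -4.35 for Cyp24a1 to 4.50 for Cyp4b1.

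The sterol enzymes did not move together. Cyp51, the demethylase of lanosterol and the one P450 of cholesterol synthesis, had 6638 cornea reads and 3262 limbus reads, giving a log2 ratio of -0.93 (95% interval -0.99 to -0.87). Among the 93 genes it was the highest of the cornea per exon length, at 57.6 reads per 1000 exon bases and 1000000 library reads (RPKM). In the limbus it was the third of them, at 34.9. The P450 gene Cyp4a12b, outside the set by its symbol, had more reads in both libraries and was not ranked. The gene (chr5:4081145-4104746) is overlapped by Akap9 on the opposite strand, and the sources used here do not say whether reads were counted by strand. Of 14 other genes of cholesterol synthesis, 11 were higher in the cornea beyond counting error and 2 in the limbus. Of all genes, 40.5% were past counting error towards the cornea and 36.0% towards the limbus. Of the same 14, 4 were at least 2-fold higher in the cornea and none in the limbus, against 8.75% and 17.7% of all genes.

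Those 4 were Hmgcs1 near the head of the pathway, with a log2 ratio of -1.65, Idi1, the isoprenoid isomerase, with -1.88, Sqle, squalene epoxidase, with -1.19 (short of 2-fold under scaling to total reads), and Msmo1, the sterol oxidase acting soon after Cyp51, with -1.32. Hmgcs1 had 17716 cornea reads and 5286 limbus reads. Fdps (10858 and 10642 reads), Ebp (1360 and 1448) and Dhcr7 (1782 and 1780) were nearly level, with log2 ratios of 0.07, 0.19 and 0.09. The median of the 14 was -0.66, so Cyp51 lay among its pathway's more corneal genes.

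The P450 enzymes that break cholesterol down were divided between the tissues. Cyp39a1, an oxysterol hydroxylase, had 1741 cornea reads and 935 limbus reads, a log2 ratio of -0.80 (-0.92 to -0.69). Cyp27a1, the mitochondrial sterol hydroxylase that starts the alternative route to bile acids, had 180 and 572, a log2 ratio of 1.76 (1.52 to 2.01). Cyp7b1, which hydroxylates the oxysterols that Cyp27a1 and Ch25h make, had 35 and 87, a log2 ratio of 1.41 (0.83 to 2.02).

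Cyp27a1 and Cyp7b1 were thus limbal and Cyp39a1 corneal. Ch25h, which makes another oxysterol substrate of Cyp7b1, had 14 cornea reads and 30 limbus reads, and its log2 ratio was 1.20 (0.24 to 2.22). Hsd3b7, the dehydrogenase that follows in the same route, had 226 and 401 reads, which is a log2 ratio of 0.92. Nr1h3, a receptor for oxysterols that is abundant in macrophages, had 17 and 68 reads, which is a log2 ratio of 2.10 (1.31 to 2.96). The neuronal cholesterol hydroxylase Cyp46a1 had 3 and 12 reads, a mean below 10. Cyp7a1 and Cyp8b1, the bile acid enzymes of liver, were undetected.

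Enzymes of steroid hormone synthesis had few reads or none. Cyp17a1, which makes androgens and cortisol precursors, was the one with a mean above 10, at 18 cornea and 6 limbus reads, a log2 ratio of -1.49 with a wide interval of -3.11 to -0.09. Cyp11a1, the enzyme that starts steroid synthesis, had 0 and 6 reads, Cyp11b1 had 2 and 1 and Cyp21a1 had 0 and 1. Cyp11b2 and the aromatase Cyp19a1 were undetected, as were the dehydrogenases Hsd3b1 and Hsd3b6. Hsd11b1, which regenerates active glucocorticoid, had 1 cornea read and 42 limbus reads, at least 4.78-fold higher with the cornea count set to 3 reads.

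Of the 3 vitamin D enzymes, 2 had a mean of at least 10 reads. Both were at least 2-fold higher in the cornea, a rule that 8.75% of all genes met. Cyp24a1, the enzyme that inactivates vitamin D and a classical target of the vitamin D receptor, had 328 cornea reads and 15 limbus reads, giving a log2 ratio of -4.35 (-5.21 to -3.61), or 20.5-fold. No other P450 gene of the 29 had so large a ratio towards the cornea. Cyp2r1, which carries out the first hydroxylation of vitamin D, had 107 and 41 reads, a log2 ratio of -1.29 (-1.84 to -0.76). Cyp27b1, which makes the active hormone, had 2 reads in each library, too few for a ratio. Cyp24a1 (chr2:170482708-170497145) is overlapped by Pfdn4 on the opposite strand.

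The receptor itself did not differ beyond counting error, and its ratio changed sign under scaling to total reads. Vdr had 521 cornea reads and 461 limbus reads, giving a log2 ratio of -0.08 (-0.27 to 0.10), and its partner Rxra had 4378 and 4451, a log2 ratio of 0.12. Cubn, a receptor that takes up vitamin D with its carrier protein, had 10 and 46 reads, which is a log2 ratio of 2.30 (1.29 to 3.45). Lrp2, its partner in uptake, had 1 and 14 reads, and the carrier gene Gc was undetected. Of the 3 genes of this list with a mean of at least 10 reads, 1 was at least 2-fold higher in the limbus and none in the cornea. The shares of all genes were 17.7% and 8.75%.

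The retinoic acid hydroxylases differed from each other in level and in side. Cyp26b1 had 3256 cornea reads and 2087 limbus reads, giving a log2 ratio of -0.55 (-0.63 to -0.47). Among the 93 genes it was the fourth of both tissues per length. Cyp26a1, whose upstream sequence holds the retinoid receptor repeat shown above, had 2 and 39 reads, at least 4.42-fold higher in the limbus. Cyp26c1, its neighbour on chromosome 19, had 0 and 1.

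All 3 enzymes break retinoic acid down, and Cyp26b1 had most of their reads in both libraries. Genes that make, bind and sense retinoic acid were past counting error towards the limbus for 7 of 10 and towards the cornea for 2 of 10, against 36.0% and 40.5% of all genes. Aldh1a2, a retinaldehyde dehydrogenase, had 0 cornea reads and 271 limbus reads, at least 32.7-fold higher. Aldh1a1, a related enzyme, had 7369 and 1548 reads, a log2 ratio of -2.16, and Aldh1a3 had 5088 and 5349, a log2 ratio of 0.17. The binding protein Crabp2 had a log2 ratio of 1.45 and the receptor gene Rarb, itself a retinoic acid target, had 52 and 125 reads, which is a log2 ratio of 1.36. Retina markers were higher in the limbal library too, Gnat1 going from 160 to 1506 reads, and their part in Cyp26a1 and Aldh1a2 was not tested.

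**Figure D3:**
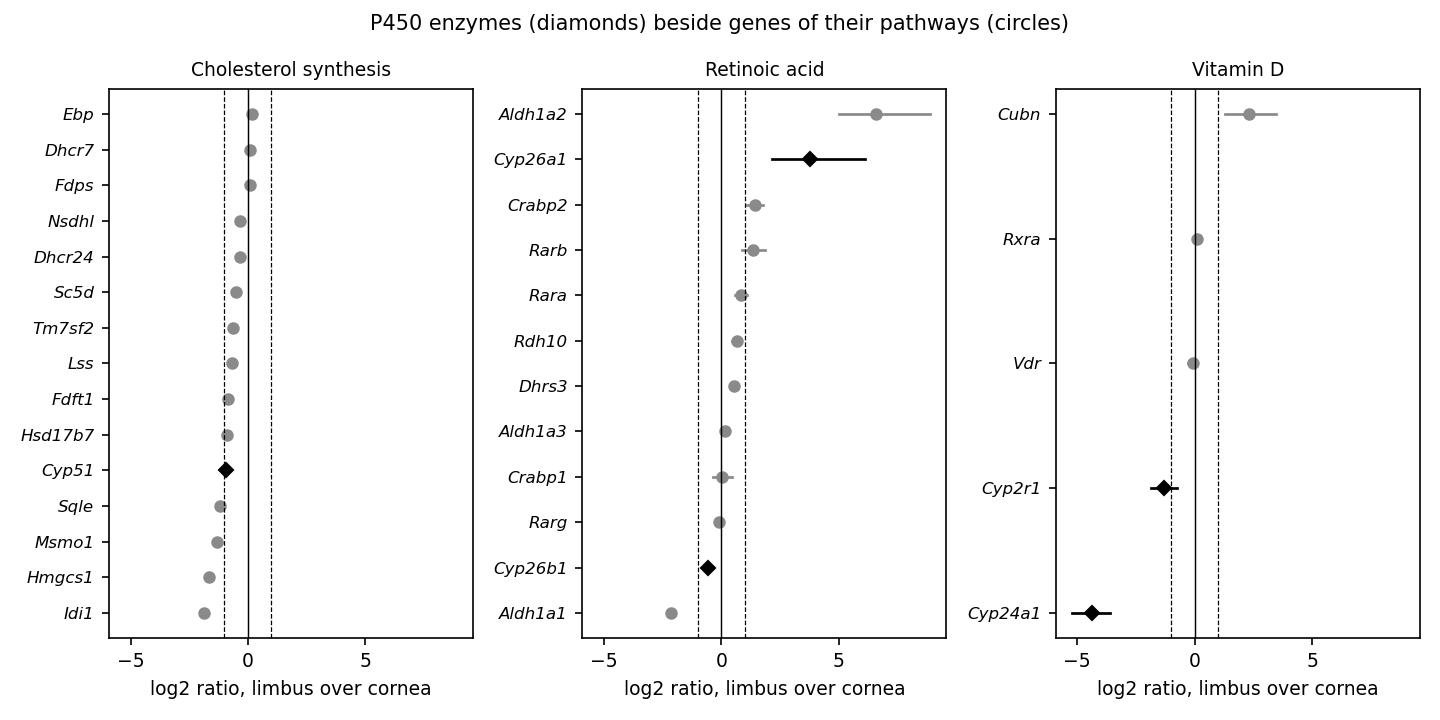
Log2 ratios of limbus over cornea (x axis) for P450 enzymes (diamonds) and genes of the same pathway (circles) with a mean of at least 10 reads, with exact 95% intervals for counting error. Cyp51 (-0.93) lies among cholesterol genes that are mostly left of 0, Cyp26a1 and Cyp26b1 lie on opposite sides of 0, and Cyp24a1 (-4.35) lies left of Vdr (-0.08).

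Family 1, the targets of the aryl hydrocarbon receptor, was low. Cyp1b1, which metabolises retinoids, oestrogens and polycyclic hydrocarbons and is mutated in congenital glaucoma, had 20 cornea reads and 44 limbus reads, giving a log2 ratio of 1.23 (0.44 to 2.07). Cyp1a1 had 0 and 4 reads and Cyp1a2 was undetected. The receptor Ahr had 303 and 448 reads, a log2 ratio of 0.66 (0.45 to 0.88), and its target and repressor Ahrr had 8 and 70, a log2 ratio of 3.23 (2.17 to 4.49). Tiparp and Nqo1, other targets of the receptor, had log2 ratios of -0.75 and -0.67, so the targets lay on both sides. Rxrg, on the same list of regulators as Ahr, had 0 and 39 reads, at least 4.42-fold higher in the limbus.

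Family 2 held the gene with the most limbal reads. Cyp2f2, an enzyme of airway club cells that activates naphthalene, had 1411 cornea reads and 6515 limbus reads, giving a log2 ratio of 2.30 (2.22 to 2.39) or 4.93-fold. Among the 93 genes it was the highest of the limbus per length, at 152 RPKM against 26.7 in the cornea. Cyp2a5, which oxidises coumarin and nicotine and is found in liver and nasal epithelium, had 121 and 2019 reads, a log2 ratio of 4.16 (3.89 to 4.43) or 17.8-fold. Of the 75-base words of the Cyp2a5 transcript, 25.5% occur in another gene, mainly Cyp2a4, and Cyp2a4 had 0 and 1 reads.

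These limbal genes were read against liver and gland markers. Of 7 hepatocyte genes, Alb, Serpina1a, Fgb and Tat were listed at 0, Apoa1 had 1 and 2 reads and Apob 1 and 0, while Ttr, which is also made in the eye, had 72 and 640. Of 8 goblet and gland genes, Tff1, Bpifa1, Lcn11 and Muc5b were listed at 0 and Muc5ac had 1 read in each library. The other 3 were Agr2 with 46 and 618 reads, Ltf with 959 and 2338 and Spdef with 18 and 25, so Agr2 and Ltf were at least 2-fold higher in the limbus. The 7 listed genes of limbal and conjunctival epithelium were all at least 2-fold higher in the limbus, against 17.7% of all genes. Krt15 and Krt19 among them set the direction, so their side was fixed beforehand. Krt19 was at a log2 ratio of 4.53 and Krt4, a keratin of the conjunctiva, at 5.16. Which of these cells held Cyp2f2 and Cyp2a5 was not tested.

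Cyp2d22 and Cyp2w1 completed the limbal side of the family. Cyp2d22, of the subfamily that handles many drugs in humans, had 69 and 239 reads, a log2 ratio of 1.89 (1.496 to 2.30). Cyp2w1, known from fetal gut and colon tumours, had 6 and 104, a log2 ratio of 4.21 (3.04 to 5.69) or 18.5-fold.

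On the corneal side of families 2 and 3 were Cyp3a13, Cyp2s1 and Cyp2b19, beside Cyp2r1 described above. Cyp3a13, the family 3 enzyme of the mouse that is prominent outside the liver, had 2839 cornea reads and 755 limbus reads. Its log2 ratio was -1.82 (-1.93 to -1.70). Among the 93 genes it was the second of the cornea per length (36.8 RPKM, 12.1 in the limbus). Cyp2s1, an enzyme of skin and airway epithelium, had 1142 and 479, a log2 ratio of -1.16 (-1.31 to -1.003). Cyp2b19, an arachidonate epoxygenase of differentiated keratinocytes, had 497 and 139, a log2 ratio of -1.74 (-2.02 to -1.47).

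Krt12 lay on the same side, with a log2 ratio of -2.19, as did the basal keratin Krt5 with -0.41, while the basal keratin Krt14 was at 2.52. Under scaling to total reads Cyp2s1 was at -0.95 and no longer 2-fold higher in the cornea. Apart from Cyp2r1 and the Cyp2j group, the remaining detected family 2 genes had 5 reads or fewer in each library. Cyp2e1, the ethanol enzyme, had 0 and 4 reads, Cyp2ab1 had 0 and 4, Cyp2u1 had 1 and 5, Cyp2c44 had 2 and 3 and Cyp2c65 had 1 and 2.

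Of the fatty acid enzymes, 3 of 7 Cyp2j genes and all 8 Cyp4f genes were detected. Cyp2j6 and Cyp2j9 belong to a subfamily that oxidises arachidonate and linoleate and makes epoxides of them. Cyp2j6 had 1012 and 553 reads, a log2 ratio of -0.78 (-0.93 to -0.63), and Cyp2j9 had 253 and 140, a log2 ratio of -0.76 (-1.07 to -0.45). Cyp2j8 had 1 read in each library. Ephx2, the soluble hydrolase that breaks such epoxides down, had 2126 and 586 reads, a log2 ratio of -1.76 (-1.90 to -1.63), so its ratio lay on the same side as theirs. Ephx4, on the same list as Ephx2, had 4 and 16 reads, a log2 ratio of 2.10 (0.46 to 4.14).

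The Cyp4f enzymes hydroxylate long fatty acids and leukotrienes at their end. Cyp4f13 had 484 and 445 reads, a log2 ratio of -0.03 (-0.21 to 0.16), and Cyp4f17 had 102 and 124, a log2 ratio of 0.38 (-0.01 to 0.77). Cyp4f15 had 243 and 133, a log2 ratio of -0.77 (-1.09 to -0.46), and Cyp4f16 had 161 and 105, a log2 ratio of -0.52 (-0.89 to -0.16). Cyp4f39, the mouse counterpart of the enzyme that makes skin barrier lipids, had 73 and 31, a log2 ratio of -1.14 (-1.80 to -0.52).

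Cyp4f39 was thus the one gene of its cluster past 2-fold, and at total-read scaling it fell short. Cyp4f40 had 6 reads in each library and Cyp4f14 had 3 and 0. Cyp4f18, which inactivates leukotriene B4 in neutrophils and lies on another chromosome, had 1 and 21 reads, at least 2.23-fold higher in the limbus. The leukocyte genes Ptprc (30 and 72 reads) and Csf1r (74 and 465) were also higher in the limbus, and their part in Cyp4f18 was not tested. Cyp4f18 is overlapped by Zfp961 on the opposite strand.

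Cyp4b1, a family 4 enzyme of lung that hydroxylates short fatty acids, had 5 cornea reads and 106 limbus reads, the largest ratio of the 29 at 4.50 (3.23 to 6.15) or 22.7-fold. Cyp4v3, the counterpart of the human gene mutated in a crystalline dystrophy of cornea and retina, had 148 and 135 reads, a log2 ratio of -0.04 (-0.38 to 0.31). It is overlapped on the same strand by the coding gene Gm45753, which holds 6.40% of its words. Cyp4a10, a target of the receptor Ppara, had 22 and 10, a log2 ratio of -1.04 (-2.28 to 0.10), and Cyp4a32 had 0 and 5. Of the Cyp4a10 words, 19.1% occur in another gene, mainly Cyp4a32. The orphan enzyme Cyp20a1 had 129 and 109, a log2 ratio of -0.15 (-0.53 to 0.23).

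Cyp4v3, Cyp20a1 and Cyp4a10 thus did not differ beyond counting error, and under scaling to total reads the ratios of Cyp4f13, Cyp4v3 and Cyp20a1 lay above 0, at 0.18, 0.17 and 0.06. Ptgis, the P450-like enzyme that makes prostacyclin in blood vessels, had 83 and 395 reads, a log2 ratio of 2.35 (2.002 to 2.71), and Tbxas1, which makes thromboxane, had 2 and 12. The family 4 genes Cyp4a12a and Cyp4a12b end in a letter and lie outside the set. Cyp4a12b had 7184 cornea reads and 4759 limbus reads, a sum above that of any of the 93, and Cyp4a12a had 200 and 22. The 2 transcripts share 41.3% of the 75-base words of Cyp4a12b, so how the reads were divided between them is uncertain.

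Few genes carried most of the P450 reads. The 93 genes took 21064 cornea reads, or 807 per 1000000 library reads, and 19308 limbus reads, or 912 per 1000000. Cyp51, Cyp26b1, Cyp3a13 and Cyp39a1 made up 68.7% of the cornea total, and Cyp2f2, Cyp51, Cyp26b1 and Cyp2a5 made up 71.9% of the limbus total. Per exon length, the sum over all genes was 223 RPKM in the cornea and 335 in the limbus. The order was Cyp51, Cyp3a13, Cyp2f2, Cyp26b1 and Cyp39a1 in the cornea, at 57.6, 36.8, 26.7, 23.3 and 21.8, and Cyp2f2, Cyp2a5, Cyp51, Cyp26b1 and Cyp39a1 in the limbus, at 152, 46.0, 34.9, 18.4 and 14.5. Cyp2a5 was thus the second gene of the limbus and the 14th of the cornea, where it was at 2.24.

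**Figure D4:**
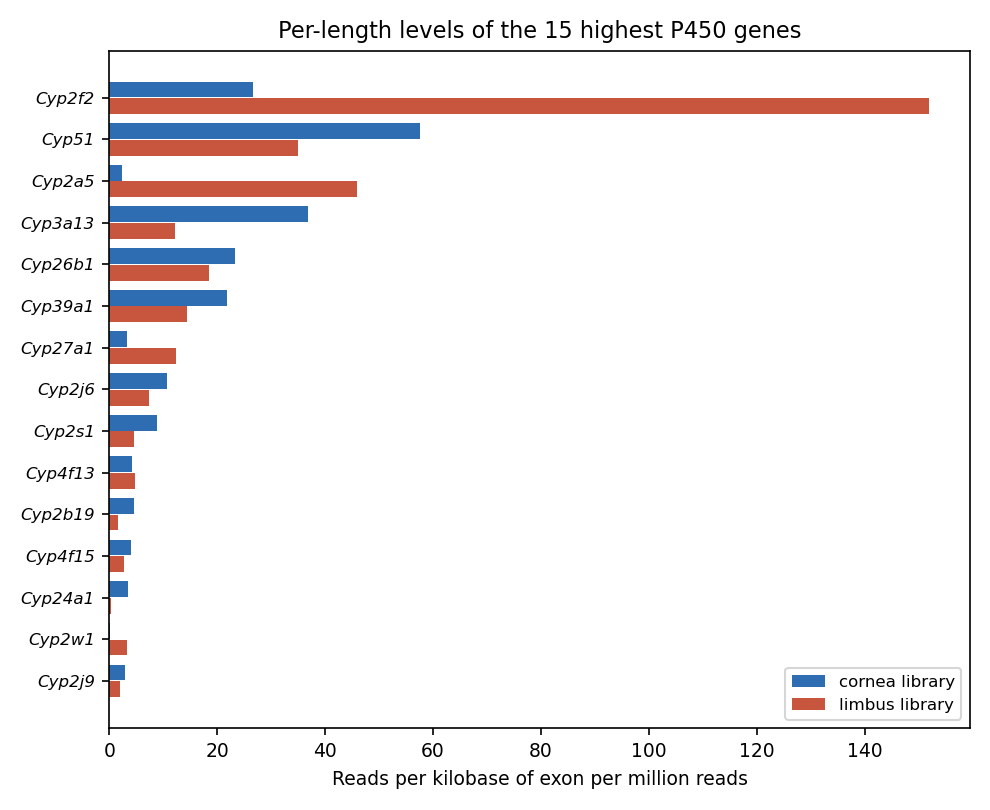
RPKM (x axis) for the 15 of the 93 P450 genes with the highest level in either tissue. The cornea library is in blue and the limbus library in red, 1 library each. Cyp2f2 reaches 152 in the limbus, and Cyp51 leads the cornea among these genes at 57.6.

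The cornea library had reads for 38 of the 93 genes (40.9%) and the limbus library for 45 (48.4%), against 68.4% and 72.4% of all named genes. Of the 46 detected, 8 (17.4%) were seen in the limbus alone and 1 (2.17%), Cyp4f14, in the cornea alone, against 8.18% and 2.82% of all detected genes. The 8 were Cyp11a1, Cyp4a32, Cyp1a1, Cyp2ab1, Cyp2e1, Cyp21a1, Cyp26c1 and Cyp2a4, none with more than 6 reads. A gene at 0 reads may have held up to 3, which is 0.115 per 1000000 library reads for the cornea and 0.142 for the limbus. With at least 10 reads asked in either library, 30 genes remained.

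The 47 undetected genes were mainly those of the large liver groups. They comprised 13 Cyp2c, 8 Cyp2d, 6 Cyp3a, 4 Cyp2b, 4 Cyp2j, 2 Cyp2a and 2 Cyp4a genes, with 1 each of Cyp1a, Cyp2g, Cyp2t, Cyp4x, Cyp7a, Cyp8b, Cyp11b and Cyp19a. Family 2 had 33 of 49 genes undetected, family 3 had 6 of 7 and family 4 had 3 of 15. The liver receptors that switch such genes on were also at the floor, Nr1i2 with 1 read in each library and Nr1i3 listed at 0, and Hnf4a had 4 and 5 reads. Their part in the undetected genes was not tested. Sharing of words with other genes was not measured for the undetected genes.

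Genes that lie side by side in the genome differed widely. A run of 13 family 2 genes on chromosome 7 (chr7:25802475-27158668) had 8 undetected genes and 4 with a mean of at least 10 reads, of which Cyp2s1 and Cyp2b19 were at least 2-fold higher in the cornea and Cyp2a5 and Cyp2f2 in the limbus. In the Cyp2c run on chromosome 19 (chr19:39007019-40187333), 13 of 14 genes were undetected, and in the Cyp3a run on chromosome 5 (chr5:145345279-146113287) all 6 were. Cyp3a13 lies apart from that run (chr5:137892932-137921619). The Cyp2d run on chromosome 15 had 7 of 8 undetected and Cyp2d22 present. By contrast the Cyp4f run on chromosome 17 (chr17:32452723-32947402) had reads for all 7 genes.

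Other enzyme families were read beside the P450 genes. The share of listed genes with a read was 49.5% for P450, 38.1% for the glucuronosyltransferases (Ugt), 38.9% for the sulfotransferases (Sult), 71.4% for the flavin monooxygenases (Fmo), 73.7% for the carboxylesterases (Ces), 95% for the aldehyde dehydrogenases (Aldh) and 95.2% for the glutathione S-transferases (Gst), against 74.5% of all named genes. By this share P450 lay between Sult and Fmo. At a mean of at least 10 reads, the shares were 19.0% for Ugt, 22.2% for Sult, 31.2% for P450, 36.8% for Ces, 42.9% for Fmo, 90.5% for Gst and 95% for Aldh, and 59.5% for all genes, so that P450 lay between Sult and Ces. Families also differ in how many near copies they hold, and the shares carry no test.

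**Figure D5:**
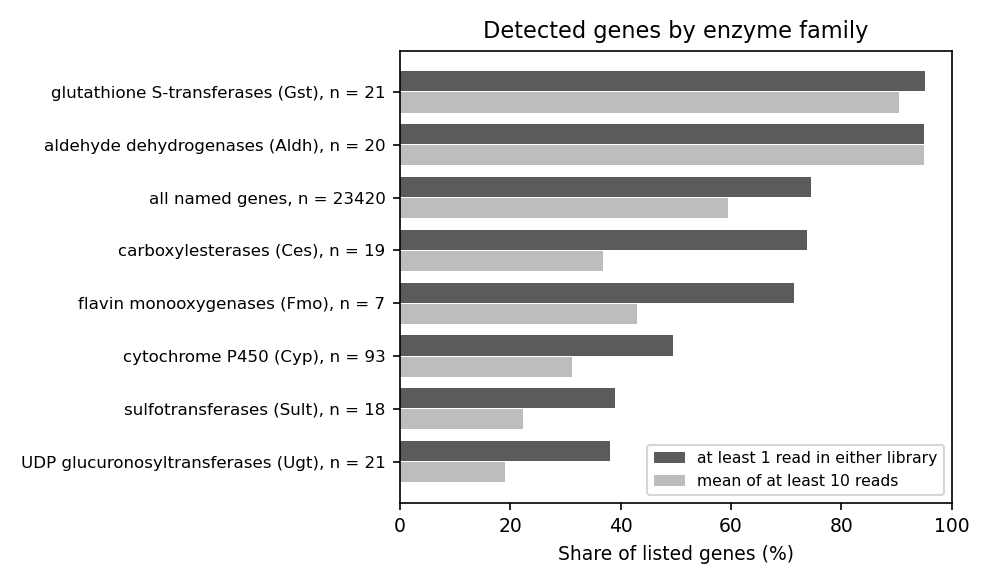
Share of listed genes (x axis, %) with at least 1 read in either library (dark bars) and with a mean of at least 10 normalised reads (light bars), by enzyme family. P450 genes are at 49.5% and 31.2%, below all named genes at 74.5% and 59.5%.

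The electron donors and the haem supply were present in both tissues. Por had 3167 cornea reads and 6840 limbus reads, giving a log2 ratio of 1.21 (1.15 to 1.27). Fdx1, the mitochondrial donor that serves Cyp27a1 and Cyp24a1, had 952 and 1182 reads, a log2 ratio of 0.41 (0.28 to 0.53). Its reductase Fdxr had 112 and 122, a log2 ratio of 0.22 (-0.16 to 0.60). Hmox1, which degrades haem, had 62 and 145 reads, a log2 ratio of 1.32 (0.88 to 1.77), and Pgrmc1, a haem-binding partner of P450 enzymes, had 5334 and 2881, a log2 ratio of -0.79. Of the 13 genes of this list with a mean of at least 10 reads, 2 were at least 2-fold higher in the limbus and none in the cornea, beside 17.7% and 8.75% of all genes, with a median of 0.14.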

How the data were processed

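Mouse corneal buttons and limbal rims were compared in 1 table for the whole series. The authors trimmed adaptors and aligned what remained with CLC Genomics Workbench (build GRCm38, mm10), and their methods name trimmed mean of M-values scaling. For each gene the authors deposited the mean normalized signal of the libraries, a log2 fold change, the standard error of this change, raw and adjusted p-values and a status. The comparison columns are the authors' own results: the deposited log2 fold change and standard error served only to choose read numbers, and no value of theirs is printed. The table does not name the numerator, so the direction was taken from the tissues to which the study assigns Krt12, Kera, Krt15 and Krt19.

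Each mean was resolved into whole read numbers for 1 library of each tissue, with 109 cornea reads weighing as much as 102 limbus reads. The mean allowed 1 pair of read numbers for 6143 of the 17442 genes above 0 and several for 11299, and among these the pair nearest to the solution of the shrinkage equations was taken, within 0.5 read for 11294. For the P450 genes with several pairs the distance was at most 0.00558 read and the next pair lay at least 6.33 reads away. For the comparison of limbus and cornea, tested on data drawn from a model for 17083 genes, all reads were found. That model was the one solved for the reads, with settings taken from these data. The recovery thus checks the calculation and cannot show that the deposited values follow the model. Reads are therefore derived values and not a count table. Rows with no gene name (17484 of 40904) stayed out.

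Ratios used the size factors of the table, with 95% intervals from the exact binomial (Clopper-Pearson) limits on the limbal fraction, for counting error only. Read numbers of 3 or fewer were raised to 3 and gave a lower bound, the low end of that interval. A gene was counted as higher in a tissue at 2-fold or more with an interval on 1 side of 0, if its mean was 10 or more. The design fixed no test for 1 library per tissue, so none was made. Levels per length used GENCODE exon unions on GRCm38, which matched 92 of the 93 genes. Another gene overlaps 10 of the 29 genes, in 4 cases a coding gene, and 5 share over 5% of their 75-base words with another gene. Named were every P450 gene with a mean of at least 10, the lower ones by group, undetected ones by subfamily, and list genes past 2-fold or partnering a named enzyme. A few listed genes are not reported here and are left out of their lists. Members and lists were chosen with earlier results of these data known. Scaling, pseudocount, filters, fold and length were varied. Python 3.11.15, numpy 2.4.6, scipy 1.17.1, pandas 2.3.3 and matplotlib 3.10.9 were used.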

Additional observations from a re-analysis of the deposited data

How the results depend on the processing

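No paired analysis was possible because no column gives values of single samples, and for the same reason leaving out a replicate was not run. The 10 limbal and 7 corneal genes kept their direction under scaling to total reads, the trimmed mean of M-values and a pseudocount of 1. This is no check, since each was chosen at 2-fold or more and the scalings shifted ratios by at most 0.21. Of the 29 P450 genes, 7 were at least 2-fold higher in the cornea, against 8.75% of all genes, and 12 were at 1.5-fold. The number was 4 under total reads, against 5.48% of all genes, and 4 without the 10 genes that another gene overlaps. The limbal number stayed between 7 and 11. Among the alternatives, shares of all genes were worked out only for the scalings. The median log2 ratio was -0.52 over the 29 genes. It was 0.10, on the other side of 0, over the 8 of them whose mean allows 1 pair of reads, which are those with few reads. Detected genes numbered 30 at 10 reads in either library. Scaling to total reads shifted each ratio by 0.21, which put the median at 0.34 for redox partners, 0.54 for regulators, 0.80 for retinoic acid genes, 0.33 for vitamin D genes, -0.46 for cholesterol genes and 0.45 for arachidonate genes, and moved 8 of the 29 genes beyond their intervals. Leaving out genes that share over 5% of their words, an alternative chosen after seeing the data, gave 8 limbal and 7 corneal genes. Depth limits genes under 10 reads, whose intervals span several-fold.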

Other observations

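Other enzyme families of drug and aldehyde metabolism were read by the same rule, which 17.7% of all genes met for the limbus and 8.75% for the cornea. Among the sulfotransferases, 3 of 4 genes that averaged 10 reads or more were at least 2-fold higher in the limbus and none in the cornea, with a median log2 ratio of 2.43. The flavin monooxygenases had 2 of 3 at least 2-fold higher in the limbus, and the glutathione S-transferases 4 of 19, with none of either family at least 2-fold higher in the cornea. The aldehyde dehydrogenases, which include the corneal crystallin Aldh3a1, had 5 of 19 at least 2-fold higher in the cornea and 3 of 19 on the limbal side. For the carboxylesterases these were 3 of 7 and 1 of 7, and for the glucuronosyltransferases 1 of 4 and 1 of 4. The whole families took 25377 cornea and 13052 limbus reads per 1000000 for aldehyde dehydrogenases, and 28203 and 40149 for glutathione S-transferases, against 807 and 912 for the P450 genes.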
